A study of Mus musculus with 4 samples.

Results

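The 4 receptors *S1pr1*, *S1pr4*, *Gpr183* and *Ccr7*, which guide T cells out of tissues and through lymphoid organs, were followed in single-cell RNA sequencing of mouse intestinal T cells. They were taken by their symbols from the 13265 genes of the deposited table, and all 4 were present. The table holds 5080 cells, sorted as YFP+CD4+ from small intestines of mice aged 7 to 8 months and counted with a 3′ droplet protocol, each with a condition and a cluster name. All mice carried *Il17a-cre* and a *Rosa26-stop-fl/fl-yfp* reporter, so that any cell that had once expressed *Il17a* was marked for good. To this, TGFβR-KO mice added floxed alleles of *Tgfbr2*, TGFβR-CA mice added a constitutively active form of *Tgfbr1* behind a floxed stop cassette, and TGFβR-WT mice added neither. There were 2975 TGFβR-KO cells from 1 sample, 1098 cells labelled TGFβR-CA from 1 sample and 1007 cells labelled TGFβR-WT from 2 samples, each sample a pool of mice. Because the recombinase acts in every cell that has switched on *Il17a*, the cells include more than current TH17 cells.

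S1P receptor 1 senses sphingosine 1-phosphate, which is abundant in blood and lymph and scarce inside tissues, and draws T cells into the draining lymph. The transcription factor Klf2 drives *S1pr1* transcription, and the early activation protein Cd69 binds S1pr1 and takes it off the cell surface, so that cells holding Cd69 tend to stay. S1pr4 is a further receptor of the same lipid found on lymphocytes. Gpr183, also called EBI2, follows 7α,25-dihydroxycholesterol, an oxysterol that places follicular helper T cells and lymphoid cells of the gut, and Ccr7 follows the chemokines Ccl19 and Ccl21 into the T cell zones of lymph nodes.

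All 4 genes lie on the minus strand of mm10 (GENCODE vM21). *S1pr1* spans chr3:115710433-115715072 in up to 2 exons, and *S1pr4* spans chr10:81497747-81500132 in 1 exon. *Ccr7* spans chr11:99144196-99155077 in 3 exons, and *Gpr183* spans chr14:121952551-121965195 in up to 3 exons. *Gpr183* lies inside the bounds of *Ubac2*, a gene of the plus strand, but shares 0 of its 2887 exon bases with the exons of *Ubac2*. Whether strand was used in counting was not given in the sources used here.

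The RefSeq promoter table (GRCm38.p6) holds 2 of the 4 members. They are shown because *S1pr4* was higher over all TGFβR-KO cells and *Gpr183* was lower in TGFβR-KO Activated cells, as described further on. Each is the 250 bases before the start of transcription, at chr10:81500138-81500387 for *S1pr4* and at chr14:121965194-121965443 for *Gpr183*, both on the minus strand and read 5′ to 3′, with capitals for a match to the KLF-type letters CACCC on either strand.
S1pr4: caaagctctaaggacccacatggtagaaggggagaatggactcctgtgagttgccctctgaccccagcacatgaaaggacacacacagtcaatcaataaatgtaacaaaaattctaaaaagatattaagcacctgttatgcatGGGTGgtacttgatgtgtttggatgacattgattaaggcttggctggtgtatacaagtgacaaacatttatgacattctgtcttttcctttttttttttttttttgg
Gpr183: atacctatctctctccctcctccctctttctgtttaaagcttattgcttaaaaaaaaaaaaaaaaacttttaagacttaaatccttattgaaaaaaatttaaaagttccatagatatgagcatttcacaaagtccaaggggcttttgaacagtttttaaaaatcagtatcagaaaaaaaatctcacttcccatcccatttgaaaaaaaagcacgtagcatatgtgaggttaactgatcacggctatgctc
The *S1pr4* window has 1 match to CACCC, on the reverse strand and 107 to 103 bases before the start, and the *Gpr183* window has none. Of 32851 promoter windows of that length, 52.0% hold these letters. The FOXO-type letters GTAAACA, held by 3.17% of windows, and the SMAD-type letters CAGAC, held by 42.2%, had no match on either strand of the pair.

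A level here is the corrected UMIs of a gene per 10000 corrected UMIs of a group of cells. The values are UMIs that the authors had scaled to a common depth per cell, with group medians of 3659 to 3918 corrected UMIs and 1488 to 1555 detected genes per cell. With 1 sample each of TGFβR-KO and TGFβR-CA there is no replicate check and no test, and cells are not replicates. The 2 TGFβR-WT samples are not named in the cells. The names of their cells end in 1 of 2 suffixes, which split them into 709 cells (the larger set, median 1470 detected genes) and 298 cells (the smaller set, median 1675). A difference was called by its size alone, where the ratio of levels was at least 1.5 in the same direction against both sets. The methods give a batch of TGFβR-KO and a batch of TGFβR-CA, each with TGFβR-WT cells, but not which set belongs to which. *Tgfbr1* stood at 0.792 in cells labelled TGFβR-CA, at 0.367 in the larger and at 2.79 in the smaller TGFβR-WT set. The smaller set thus held the highest level of the gene whose active form defines TGFβR-CA, which goes against the labels. Whether the labels of these groups were exchanged was not tested. An exchange would turn every ratio of TGFβR-CA to the smaller set upside down. Levels of members over all cells are therefore given against each set, and cells are named by their labels. Most shares of cells within clusters, detection of pairs and members per cell are given for pooled TGFβR-WT cells. Under an exchange, every value of pooled TGFβR-WT cells would mix both genotypes. A call against both sets would not be a call against TGFβR-WT alone. *Tgfbr2* stood at 1.48 in TGFβR-KO and 1.73 in TGFβR-WT cells, but 3′ UMIs need not touch the deleted part, so this checks nothing. Markers of CD4 T cells were seen in 99.9% to 100% of cells of each condition, CD8 markers in 0.596% to 1.48% and follicular helper markers in 68.5% to 88.5%. TH17 markers were seen in 41.3% to 50.5%. A barcode found in another library too was carried by 32 cells, and 14 such barcodes joined TGFβR-KO to the larger set. Without these cells the log2 ratio of TGFβR-KO to TGFβR-WT was 0.86 for *S1pr4* (0.87 with them) and -1.17 for *Ccr7* (-1.19 with them).

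Over all cells, *S1pr4* was higher and *Ccr7* lower in TGFβR-KO than in both TGFβR-WT sets, and none of the 4 receptors was called in cells labelled TGFβR-CA. For scale, 2.76% of 7467 genes tested were called higher and 5.45% lower in TGFβR-KO. In cells labelled TGFβR-CA, 1.21% of 7465 genes were called higher and 2.73% lower.

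*S1pr4* had a level of 1.14 in TGFβR-KO cells, 0.625 in cells labelled TGFβR-CA, 0.638 in the larger and 0.602 in the smaller TGFβR-WT set. The 3 groups other than TGFβR-KO lay close together, and TGFβR-KO was 1.79-fold and 1.90-fold above the larger and the smaller set. It was detected in 31.3% of TGFβR-KO cells (95% interval 29.7 to 33.0), 20.3% (18.0 to 22.8) of cells labelled TGFβR-CA, 18.3% (15.6 to 21.4) of the larger and 19.5% (15.1 to 24.4) of the smaller set. These exact Clopper-Pearson intervals, like all those below, cover counting error only.

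*S1pr1* had a level of 1.16 in TGFβR-KO cells, 0.470 in cells labelled TGFβR-CA, 1.01 in the larger and 0.412 in the smaller TGFβR-WT set. The gap between the sets was wider than the gap between TGFβR-KO and the larger one. TGFβR-KO was 1.15-fold above the larger and 2.80-fold above the smaller set, and so was not called. Cells labelled TGFβR-CA stood at 0.467 times the larger and 1.14 times the smaller set, a change of direction between sets. The share of cells with *S1pr1* was 26.1% (24.5 to 27.7) in TGFβR-KO, 12.7% (10.7 to 14.8) in cells labelled TGFβR-CA, 19.7% (16.9 to 22.9) in the larger set and 13.8% (10.1 to 18.2) in the smaller.

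*Gpr183*, with the most UMIs of the 4, had a level of 3.74 in TGFβR-KO cells, 4.11 in cells labelled TGFβR-CA, 5.51 in the larger and 4.24 in the smaller TGFβR-WT set. Both TGFβR-WT sets were above both other groups, by less than the size needed for a call against each set. TGFβR-KO stood at 0.679 and 0.883 times the larger and the smaller set. It was detected in 50.4% (48.6 to 52.2) of TGFβR-KO cells, 52.7% (49.7 to 55.7) of cells labelled TGFβR-CA, 61.6% (57.9 to 65.2) of the larger and 58.4% (52.6 to 64.0) of the smaller set.

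*Ccr7* was sparse, with 313 UMIs in 252 cells. Its level was 0.110 in TGFβR-KO cells, 0.214 in cells labelled TGFβR-CA, 0.247 in the larger and 0.256 in the smaller TGFβR-WT set. TGFβR-KO was the lowest of the 4 groups, at 0.444 times the larger and 0.430 times the smaller set. It was seen in 3.56% (2.93 to 4.29) of TGFβR-KO cells, 6.83% (5.41 to 8.49) of cells labelled TGFβR-CA, 6.63% (4.91 to 8.72) of the larger and 8.05% (5.23 to 11.7) of the smaller set. B cells also carry *Ccr7* and *Gpr183*, and their markers were seen in 2.66% of TGFβR-KO cells, 1.28% of cells labelled TGFβR-CA, 3.95% of the larger and 0.671% of the smaller set. Without cells holding such a marker, or a myeloid or epithelial marker other than *Cst3*, the log2 ratio of *Ccr7* in TGFβR-KO to TGFβR-WT was -1.17, against -1.19 with them.

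**Figure D1:**
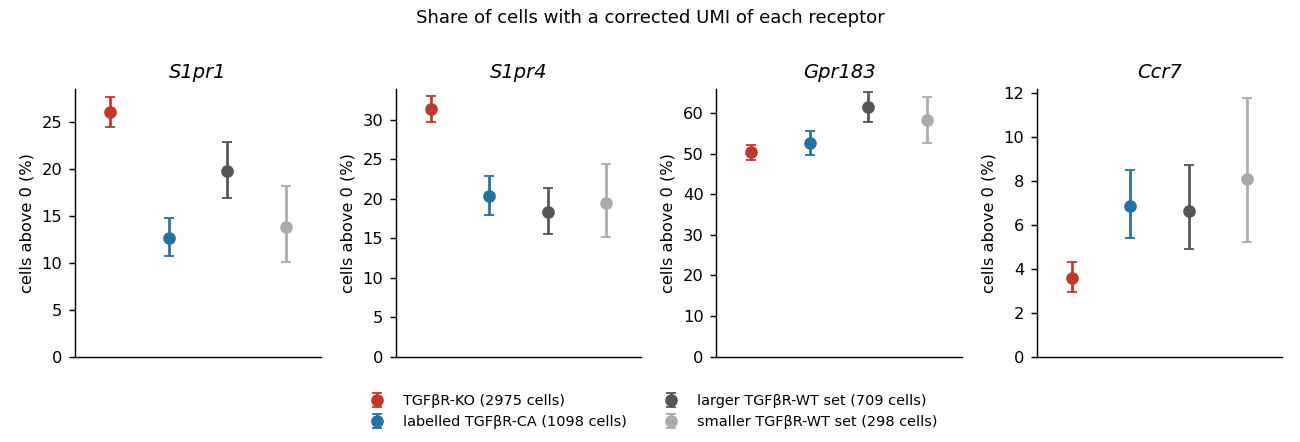
Share of cells (%) with at least 1 corrected UMI of each receptor in TGFβR-KO cells, cells labelled TGFβR-CA and the larger and smaller TGFβR-WT sets; bars are exact 95% intervals for counting error only and each panel has its own axis from 0. *S1pr4* stands highest in TGFβR-KO (31.3%) and *Ccr7* lowest there (3.56%), while for *S1pr1* the TGFβR-WT sets stand apart (19.7% and 13.8%).

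The 8 deposited clusters divided the receptors. Among groups of at least 15 cells, the lipid receptors *S1pr1* and *S1pr4* peaked in Migratory cells, *Gpr183* in TR-TFH (tissue-resident follicular helper) cells and the stressed Pre-tumorigenic cells, and *Ccr7* in TR-TFH cells, except in the smaller TGFβR-WT set. The clusters were formed from these cells' own transcripts, and the authors used *S1pr1* to describe the Migratory cluster and *Gpr183* to describe TR-TFH, so that these levels are a description and not a test.

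In TGFβR-KO cells, *S1pr1* stood at 2.62 in Migratory, 0.773 in TR-TFH, 0.736 in CTL (cytotoxic), 0.637 in Tumorigenic, 0.496 in Cycling, 0.417 in Activated, 0.391 in Pre-tumorigenic and 0.309 in GC-TFH (germinal centre follicular helper) cells. Only the step from Migratory to TR-TFH separated neighbours beyond the intervals of their shares, with 53.8% (50.3 to 57.2) against 18.1% (14.9 to 21.7) of cells positive. GC-TFH cells were positive in 9.43% (6.46 to 13.2). The medians of detected genes were 1567.5 in GC-TFH and 1592 in Migratory cells, but these are counted in corrected values, and the part of stray RNA in any share was not tested. Migratory cells were 27.9% of TGFβR-KO cells, 4.74% of cells labelled TGFβR-CA, 10.3% of the larger and 5.37% of the smaller TGFβR-WT set. They held 64.8% of the *S1pr1* UMIs of TGFβR-KO cells, 29.6% of those of cells labelled TGFβR-CA and 43.4% of those of TGFβR-WT cells. TR-TFH cells held 11.2%, 54.9% and 38.1%, and more of the positive cells than Migratory cells did in cells labelled TGFβR-CA (86 against 28) and in TGFβR-WT (88 against 55).

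Within Migratory cells, *S1pr1* had a level of 2.62 in TGFβR-KO, 2.84 in cells labelled TGFβR-CA, 4.36 in the larger set of 73 cells and 1.92 in the smaller set of 16 cells. TGFβR-KO and TGFβR-CA lay between the TGFβR-WT sets, and neither was called. The positive cells were 53.8% in TGFβR-KO, 53.8% (39.5 to 67.8) in cells labelled TGFβR-CA and 61.8% (50.9 to 71.9) in TGFβR-WT. Among positive Migratory cells the mean was 1.92 UMIs in TGFβR-KO and 2.38 in TGFβR-WT.

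*S1pr4* followed the same order at the top and was flatter below. In TGFβR-KO cells it stood at 2.13 in Migratory, 1.05 in Cycling, 0.984 in CTL, 0.857 in Tumorigenic, 0.817 in Activated, 0.655 in Pre-tumorigenic, 0.653 in TR-TFH and 0.463 in GC-TFH. After Migratory, no neighbours in this order differed beyond the intervals of their shares. Migratory cells had 2.10 in cells labelled TGFβR-CA, 1.74 in the larger and 1.48 in the smaller TGFβR-WT set, against 2.13 in TGFβR-KO, which was 1.23-fold and 1.44-fold higher and not called. In TR-TFH cells the levels were 0.653 in TGFβR-KO, 0.463 in the larger set and 0.505 in the smaller, which again missed the size for a call. *S1pr4* was thus called over all TGFβR-KO cells and in no cluster that could be compared. Tumorigenic and CTL cells were not compared, as TGFβR-WT had only 5 and 13 of them. In Cycling cells TGFβR-KO was 3.96-fold above the larger set and 1.04-fold above the smaller, which held 4 such cells.

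*Gpr183* had a different order. In TGFβR-KO cells it stood at 7.05 in TR-TFH, 6.03 in Pre-tumorigenic, 6.03 in Tumorigenic, 3.13 in GC-TFH, 2.43 in Migratory, 2.37 in Activated, 1.33 in Cycling and 0.364 in CTL. The Tumorigenic and CTL clusters, both made up almost wholly of TGFβR-KO cells, lay far apart: 68.1% (63.1 to 72.9) of 361 Tumorigenic cells were positive and 9.35% (6.39 to 13.1) of 321 CTL cells. Migratory and Activated did not differ beyond the intervals of their shares, nor did Pre-tumorigenic and Tumorigenic, nor Activated and Cycling. GC-TFH stood above Migratory by level but below it by share, with 40.9% (35.4 to 46.5) against 51.0% (47.6 to 54.5) of cells positive.

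TR-TFH cells had *Gpr183* levels of 7.05 in TGFβR-KO, 5.31 in cells labelled TGFβR-CA, 8.52 in the larger and 4.52 in the smaller TGFβR-WT set, so that the TGFβR-WT sets bounded both other groups. In Activated cells, TGFβR-KO stood apart, with 2.37 against 4.30 in cells labelled TGFβR-CA, 4.01 in the larger and 3.91 in the smaller TGFβR-WT set. The 2 sets and TGFβR-CA lay within a narrow range, and TGFβR-KO was called lower, at 0.591 and 0.607 times the sets. Positive Activated cells were 42.5% (37.0 to 48.1) in TGFβR-KO, 62.3% (53.4 to 70.7) in cells labelled TGFβR-CA and 65.0% (55.6 to 73.5) in TGFβR-WT. In GC-TFH cells the values ran the other way, with 3.13 in TGFβR-KO, 2.28 in the larger set and 2.48 in the smaller, which was not called. *Ubac2*, whose bounds enclose *Gpr183*, stood at 0.825 in TGFβR-KO and 0.495 in TGFβR-WT Activated cells, the opposite direction. Over all cells *Ubac2* stood at 1.08 in TGFβR-KO, 1.93 in the larger set and 2.04 in the smaller, the same direction as *Gpr183*.

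*Ccr7* was concentrated in TR-TFH cells, which held 67.9% of the 252 positive cells. In TGFβR-KO, 12.1% (9.46 to 15.3) of TR-TFH cells were positive, followed by 2.65% (1.67 to 3.98) of Migratory and 2.52% (1.09 to 4.90) of GC-TFH cells. In Activated TGFβR-KO cells *Ccr7* was seen in 0 of 318, which allows a share of cells with a UMI of up to 0.943%. Limits beside a count of 0 are the share that 3 cells would make, not the end of an exact interval. Below TR-TFH the neighbours did not differ beyond their intervals. In cells labelled TGFβR-CA and in TGFβR-WT the shares of TR-TFH and Migratory cells overlapped, at 10.3% (7.86 to 13.1) against 7.69% (2.14 to 18.5) and 11.1% (8.37 to 14.3) against 5.62% (1.85 to 12.6), and the level in Migratory cells of the smaller set, 0.592, rests on 4 UMIs in 16 cells. Within TR-TFH the level of *Ccr7* was 0.410 in TGFβR-KO, 0.325 in cells labelled TGFβR-CA, 0.383 in the larger set and 0.411 in the smaller. The groups were close together in the cluster that carries the gene, although TGFβR-KO was called lower over all cells.

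**Figure D2:**
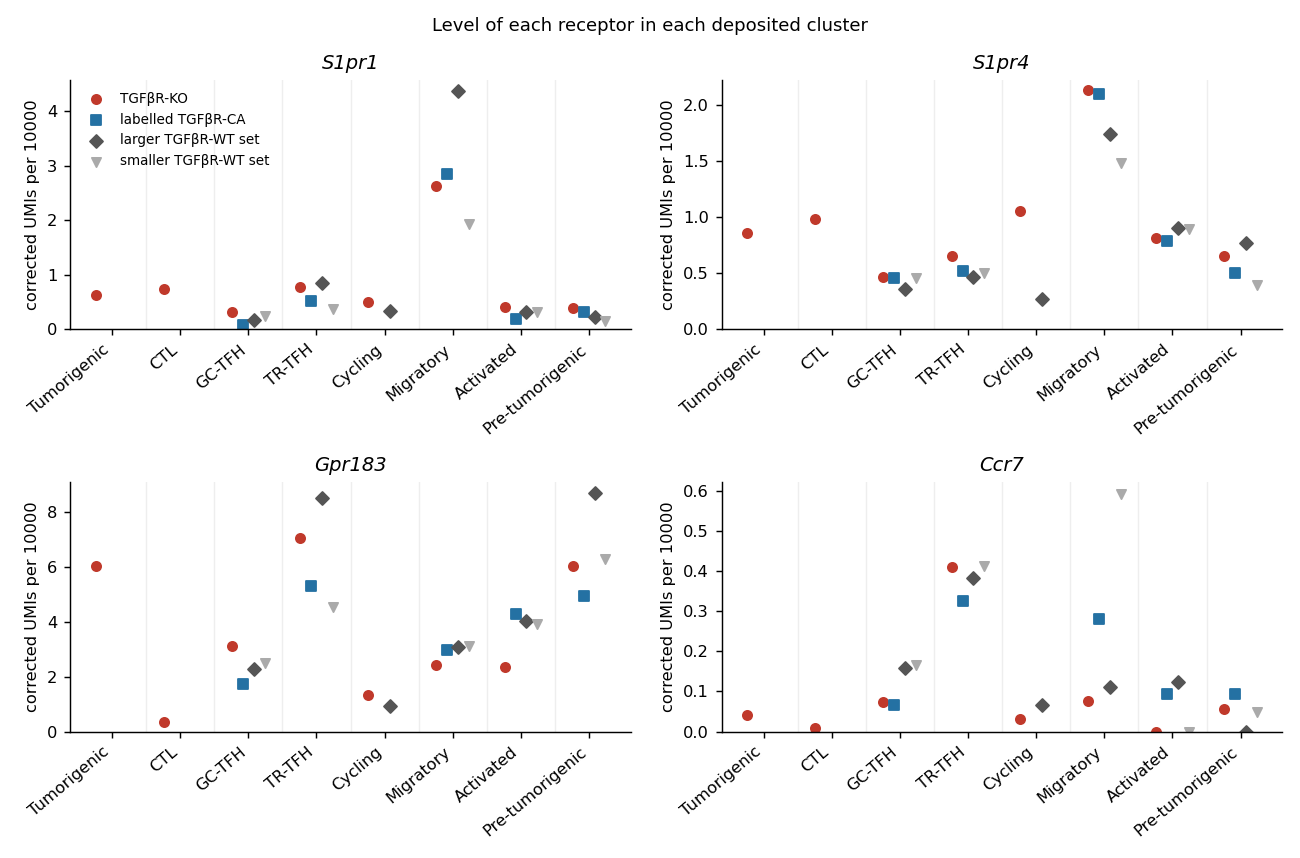
Level of each receptor (corrected UMIs per 10000, axes from 0, a scale per panel) in each deposited cluster for TGFβR-KO cells, cells labelled TGFβR-CA and the larger and smaller TGFβR-WT sets, shown where a group has at least 15 cells. *S1pr1* and *S1pr4* peak in Migratory cells, *Gpr183* in TR-TFH, Tumorigenic and Pre-tumorigenic cells, and TGFβR-KO *Ccr7* in TR-TFH cells (0.410).

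Of the levels within clusters, few were called, and the calls on *S1pr1* and *Ccr7* rest on few UMIs. In TGFβR-KO GC-TFH cells, where 9.11% of all genes were called in either direction, *Ccr7* was lower, with 9 UMIs at a level of 0.0731 against 0.158 and 0.166 in the sets. In Pre-tumorigenic cells, where 18.6% of genes were called, *S1pr1* was higher, with 34 UMIs at 0.391 against 0.220 and 0.149, and the TGFβR-WT cells held 5 UMIs in all. In Activated cells, where 13.2% of genes were called, *Gpr183* was lower as given above. No member was called in TGFβR-KO TR-TFH (9.88% of genes called), Cycling (12.2%) or Migratory (10.5%) cells.

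In cells labelled TGFβR-CA, GC-TFH cells (8.59% of genes called) had less *S1pr1*, with 9 UMIs at 0.0840 against 0.178 and 0.248, and less *Ccr7*, with 7 UMIs at 0.0653 against 0.158 and 0.166. Activated cells (13.2% of genes called) had less *S1pr1*, with 10 UMIs at 0.188 against 0.311 and 0.325. The share of positive Activated cells was 6.92% (3.21 to 12.7), between 5.68% (1.87 to 12.8) in the larger and 13.8% (3.89 to 31.7) in the smaller set, and in cells with 1200 to 2000 detected genes the ratio turned to 1.10. No member was called in TR-TFH (6.12%), Migratory (21.6%) or Pre-tumorigenic (20.6%) cells labelled TGFβR-CA.

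The conditions also differed in the size of their clusters. TR-TFH cells were 17.4% of TGFβR-KO, 50.6% of cells labelled TGFβR-CA and 45.7% of TGFβR-WT cells, and Migratory cells ran the other way. Weighting the levels within clusters by the cluster shares of TGFβR-WT put the groups on equal shares. The TGFβR-KO to TGFβR-WT ratio of *S1pr1* went from 1.42 to 0.942, that of *S1pr4* from 1.83 to 1.27, that of *Gpr183* from 0.734 to 0.952 and that of *Ccr7* from 0.439 to 0.849. All 4 moved toward equal levels, or past it for *S1pr1*, and none was left at 1.5 or more in either direction. For *S1pr4* the ratio at equal shares was 1.29 with the larger and 1.21 with the smaller set as reference, above 1 against each. For *S1pr1* it was 0.803 and 1.66, and for *Gpr183* 0.847 and 1.23, so the direction turned with the set. Cells labelled TGFβR-CA went from 0.579 to 0.725 for *S1pr1*, from 0.998 to 1.19 for *S1pr4*, from 0.807 to 0.776 for *Gpr183* and from 0.858 to 0.898 for *Ccr7*. Against the larger and the smaller set, the ratios of cells labelled TGFβR-CA at equal shares were 0.634 and 1.19 for *S1pr1*, 1.24 and 1.08 for *S1pr4*, 0.698 and 0.9797 for *Gpr183* and 0.944 and 0.8004 for *Ccr7*. The clusters come from the same transcripts as these levels, and what part *S1pr1* and *Gpr183* had in forming them was not tested.

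**Figure D3:**
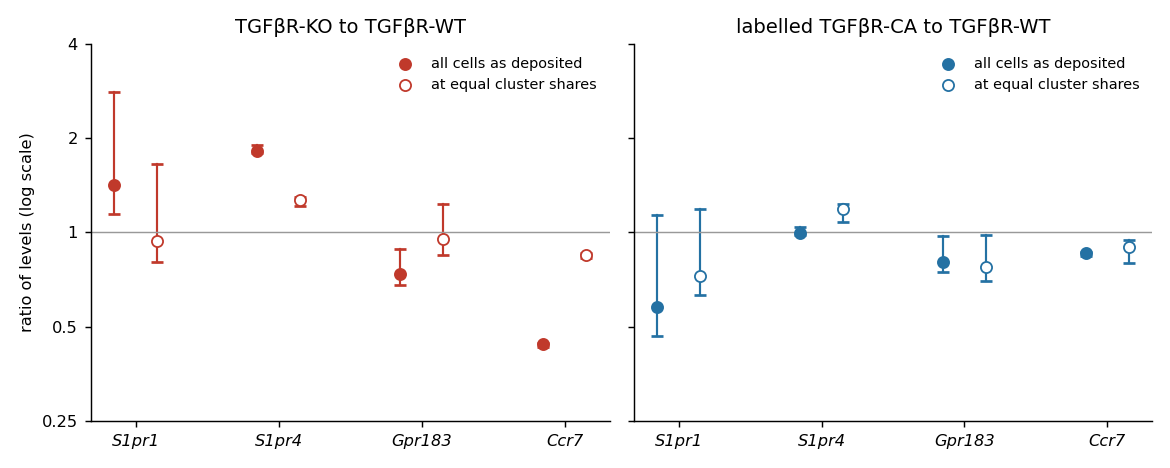
Ratio of each receptor's level to TGFβR-WT (log scale) in TGFβR-KO cells, left, and cells labelled TGFβR-CA, right, over all cells as deposited (filled) and at the cluster shares of TGFβR-WT (open); bars span the ratios to the larger and the smaller TGFβR-WT set. In TGFβR-KO, *S1pr4* goes from 1.83 to 1.27 and *Ccr7* from 0.439 to 0.849 at equal shares.

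*Klf2* differed more than any member. Its level was 6.50 in TGFβR-KO cells, 0.865 in cells labelled TGFβR-CA, 1.84 in the larger and 1.10 in the smaller TGFβR-WT set. TGFβR-KO was 3.53-fold and 5.89-fold above the sets, and at equal cluster shares the ratio to TGFβR-WT was 1.85. *Klf2* was called higher in TGFβR-KO in GC-TFH, TR-TFH, Cycling, Activated and Pre-tumorigenic cells and not in Migratory cells, where the levels were 10.5 in TGFβR-KO and 9.11 in TGFβR-WT. The call in Cycling cells rests on 4 cells of the smaller set. That in Pre-tumorigenic cells only just passed, at 1.503-fold above the 27 cells of the larger set, against 4.80-fold above the smaller.

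Across TGFβR-KO clusters the level of *Klf2* did not track that of *S1pr1* alone. *Klf2* stood at 13.5 in Tumorigenic, 10.5 in Migratory, 8.09 in Pre-tumorigenic, 6.17 in CTL, 3.47 in Cycling, 1.75 in TR-TFH, 1.32 in Activated and 0.503 in GC-TFH cells. By level, Tumorigenic and Pre-tumorigenic cells thus had *Klf2* near or above Migratory cells, with *S1pr1* at 0.637 and 0.391 against 2.62. By share of positive cells, *Klf2* was highest in Migratory cells, at 82.2% (79.4 to 84.7). The shares were 59.0% (53.7 to 64.1) in Tumorigenic and 52.6% (45.9 to 59.2) in Pre-tumorigenic cells. Single cells held up to 76 *Klf2* UMIs in Tumorigenic, 94 in Pre-tumorigenic and 17 in Migratory cells. *Cd69*, whose product takes S1pr1 off the surface, stood at 5.63 in Tumorigenic, 7.40 in Pre-tumorigenic and 0.454 in Migratory cells. The summed level of 6 early response and heat shock genes (*Fos*, *Jun*, *Dusp1*, *Hspa1a*, *Hspa1b* and *Dnajb1*), chosen after these values were seen, was 57.1 in Tumorigenic, 255 in Pre-tumorigenic and 11.8 in Migratory cells. The same sum was higher in TGFβR-KO than in TGFβR-WT in Cycling (30.8 against 5.93) and Pre-tumorigenic cells (255 against 169), where *Klf2* was called higher, and lower in GC-TFH (7.94 against 12.1), TR-TFH (10.97 against 13.7) and Activated cells (14.1 against 21.6), where *Klf2* was called higher too. The part of these genes in the levels of *Klf2* and *Cd69* was not tested.

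Within a cluster, cells with *S1pr1* held *Klf2* more often. Among TGFβR-KO Migratory cells, *Klf2* was seen in 93.7% (91.1 to 95.8) of 447 cells with *S1pr1* and 68.8% (63.9 to 73.4) of 384 without. In TGFβR-KO TR-TFH cells the shares were 56.4% (45.8 to 66.6) of 94 and 16.5% (13.1 to 20.3) of 425. In TGFβR-WT Migratory cells they were 87.3% (75.5 to 94.7) of 55 and 32.4% (17.4 to 50.5) of 34. The intervals were apart in each of these pairs. For *Cd69* the intervals overlapped in the same pairs. The shares with and without *S1pr1* were 12.1% and 15.6% in TGFβR-KO Migratory and 12.8% and 7.76% in TGFβR-KO TR-TFH cells. In TGFβR-WT Migratory cells they were 9.09% and 23.5%. Of TGFβR-KO Tumorigenic cells, 68.7% of 67 *S1pr1*-positive and 71.1% of 294 *S1pr1*-negative cells held *Cd69*, against 83.6% and 53.4% for *Klf2*. *S1pr4* went with *S1pr1* in Migratory TGFβR-KO cells, at 60.2% (55.5 to 64.7) of cells with and 47.9% (42.8 to 53.0) of cells without. Detection of a pair also depends on how much RNA of a cell was captured, and the corrected values do not show that depth.

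**Figure D4:**
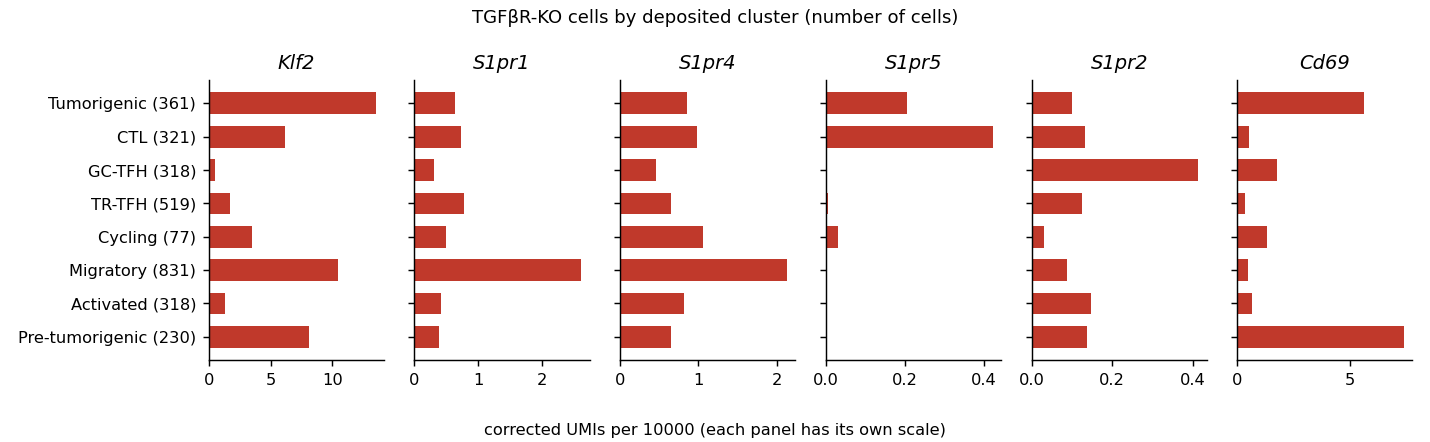
Level (corrected UMIs per 10000, axes from 0, a scale per panel) of *Klf2*, the S1P receptors *S1pr1*, *S1pr4*, *S1pr5* and *S1pr2*, and *Cd69* in the 8 clusters of TGFβR-KO cells, with the number of cells after each name. *Klf2* is high in Tumorigenic (13.5), Migratory (10.5) and Pre-tumorigenic (8.09) cells, *S1pr1* in Migratory cells (2.62), and *Cd69* in Tumorigenic and Pre-tumorigenic cells (5.63 and 7.40).

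*S1pr5*, a receptor known from natural killer cells and cytotoxic T cells, was seen in 48 cells, all of them TGFβR-KO, of which 24 were CTL and 21 Tumorigenic. It was in 7.48% of TGFβR-KO CTL and 5.82% of Tumorigenic cells, in 0 of 1098 cells labelled TGFβR-CA (3 cells would be 0.273%) and in 0 of 1007 TGFβR-WT cells (3 would be 0.298%). The latter groups held only 3 and 13 CTL cells, so a *S1pr5*-positive share within CTL cells could not be compared. *S1pr2*, which holds follicular helper T cells in the germinal centre, was highest in GC-TFH cells, at 0.414 in TGFβR-KO, 0.793 in cells labelled TGFβR-CA and 0.469 in TGFβR-WT. Among clusters of at least 30 cells, *S1pr1* was lowest in GC-TFH in TGFβR-KO cells and cells labelled TGFβR-CA. *S1pr3* had 1 UMI in all.

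Among TGFβR-KO cells of the TR-TFH cluster, *Klf2* was seen in 38.1% (26.1 to 51.2) of 63 cells with *Ccr7* and 21.7% (18.0 to 25.8) of 456 without, and these intervals did not overlap. *Cxcr6*, a receptor of tissue-dwelling T cells, ran the other way, in 9.52% (3.58 to 19.6) of cells with *Ccr7* and 29.8% (25.7 to 34.3) of those without. *Tcf7*, a transcription factor of naive, memory and follicular helper T cells, was seen in 47.6% (34.9 to 60.6) and 39.7% (35.2 to 44.3), with intervals that overlapped.

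The number of members seen per cell also set the clusters apart. In TGFβR-KO, none of the 4 was seen in 27.0% (25.4 to 28.7) of cells, against 32.7% (29.9 to 35.6) of cells labelled TGFβR-CA and 28.3% (25.5 to 31.2) of TGFβR-WT cells. Within TGFβR-KO, cells without any member were 11.6% (9.46 to 13.9) of Migratory, 17.0% (13.8 to 20.5) of TR-TFH and 54.5% (48.9 to 60.1) of CTL cells. All 4 were seen together in 14 TGFβR-KO cells, 8 of them TR-TFH and 5 Migratory.

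In the pathway lists, most calls in TGFβR-KO fell among the other chemoattractant receptors, the list with the most genes tested. Over all 7467 genes tested, 2.76% were called higher and 5.45% lower. *Klf2* and *Cxcr6* recur across lists. Of 8 regulators of egress tested, *Klf2* alone was called, and of 3 S1P receptors tested *S1pr4* alone. None of 3 tested genes, of 8 listed, for S1P production, breakdown and export was called. The same held for 5 tested, of 8 listed, partners of Ccr7 signalling. The other genes of these lists are absent from the deposited table. So are all 4 listed enzymes that make or remove the Gpr183 ligand. Of 12 other chemoattractant receptors tested, *Cxcr3*, *Cxcr6*, *Gpr18* and *P2ry10* were higher and *Cxcr4* and *Cxcr5* lower. *Cxcr3*, the receptor of type 1 effector T cells, stood at 1.30 in TGFβR-KO, 0.347 in the larger set and 0.453 in the smaller. *Cxcr5*, which leads follicular helper T cells into the follicle, stood at 0.302 in TGFβR-KO, 0.946 in the larger set and 1.19 in the smaller. Of 6 tissue retention genes, only *Cxcr6* was called, and of 7 naive and memory genes *Klf2* was higher and *Tcf7* lower. Median log2 ratios were 0.46 for the S1P receptors, 0.17 for the regulators of egress, -0.071 for S1P production, -0.024 for the Ccr7 partners, 0.34 for the other receptors, 0.42 for tissue retention and -0.20 for naive and memory genes, beside -0.13 over all genes.

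In cells labelled TGFβR-CA no gene of the S1P receptors, the regulators of egress, S1P production or the Ccr7 partners was called. Over all 7465 genes tested, 1.21% were called higher and 2.73% lower. *Cxcr6* and *Ccr2* were lower among the other receptors, *Itgae* and *Cxcr6* among the retention genes and *Satb1* among the naive and memory genes. *Itgae*, which encodes the integrin CD103, stood at 0.0844 against 0.156 in the larger and 0.635 in the smaller TGFβR-WT set. The doubt about the labels of the smaller set and TGFβR-CA holds for these levels too. The medians were -0.0025 for the S1P receptors, -0.41 for the regulators of egress, -0.0094 for S1P production, -0.41 for the Ccr7 partners, -0.32 for the other receptors, -0.42 for retention and -0.51 for naive and memory genes, beside -0.089 over all genes.

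Over the 19 groups of cluster and condition with at least 30 cells, *S1pr1* and *S1pr4* had like patterns (Pearson r = 0.82), *Ccr7* and *Gpr183* less so (r = 0.49), and *S1pr1* and *Gpr183* none (r = -0.049). The groups share libraries and clusters, so these values are descriptions. The genes most like *S1pr1* were *Rasa3* and *Arhgef18* (r = 0.87 each), *Rpl24* (0.85), *Atp1b3* (0.83) and *S1pr4*. Those most like *S1pr4* were *Ripor2* and *Tmem71* (0.91 each), *Rasa3* (0.89), *Tnfrsf25* (0.84) and *Slc25a24* (0.83). *Rasa3* was thus on both lists. Those most like *Gpr183* were *2810454H06Rik* (0.82), *1190002N15Rik* (0.78), *Mfhas1* (0.77), *Cd28* (0.76) and *4932438H23Rik* (0.72). Those most like *Ccr7* were *Cbx7* and *Actn1* (0.84 each), *Rflnb* (0.82), *Aff3* (0.80) and *Slamf6* (0.79).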

How the data were processed

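Each deposited value is a natural log, ln(1 + UMI), of UMI numbers the authors had corrected with SCTransform after alignment to mm10 with Cell Ranger (version 3.1.0 per the labels) and a filter of 1000 to 5000 detected genes and under 10% mitochondrial UMIs; clusters were made in Seurat after integration. The authors removed γδ T cells and epithelial cells. Reversing the log gave whole numbers within 1e-06 for all 7880276 nonzero entries. As these are corrected and not raw counts, no count test was run.

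Levels were summed with Python 3.11.15, numpy 2.4.6, scipy 1.17.1 and pandas 2.3.3. Genes with at least 200 corrected UMIs and a level above 0 in each group entered counts of calls. List medians are of log2 (level + 0.1). Likeness took the 5 genes of highest Pearson correlation of log2 (level + 0.1). Named genes were the members, their like genes, and genes of pathway lists that a count singled out; *Klf2*, *Cd69*, *S1pr2*, *S1pr5*, *Cxcr3* and *Itgae* belong to those lists. The members and lists were chosen with earlier results of these data known. The calculations were tested on simulated data. Doublets were not removed; Scrublet (scanpy 1.11.5) was an alternative.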

Additional observations from a re-analysis of the deposited data

Results flagged for a closer look

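The ratio of a receptor's level to TGFβR-WT went opposite ways in 2 clusters, by at least 1.2-fold against both TGFβR-WT sets and with at least 20 cells of each set, in 3 pairs of clusters. None of these differences was tested. *Gpr183* in TGFβR-KO was at 1.33 times TGFβR-WT in GC-TFH cells and 0.595 times in Activated cells. *S1pr1* in cells labelled TGFβR-CA was at 1.84 times TGFβR-WT in Pre-tumorigenic cells, against 0.418 times in GC-TFH and 0.596 times in Activated cells, each from 10 UMIs or fewer in TGFβR-CA.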

How the results depend on the processing

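No paired analysis was possible because the batches each join 1 condition to TGFβR-WT cells, the table does not say which TGFβR-WT cells belong to which batch, and no condition was run in a further batch. Log2 ratios to TGFβR-WT are given throughout. Of 88 alternatives for the 8 ratios over all cells, 72 moved them by less than the spread of the TGFβR-WT sets, 15 by more and 1 turned the direction. With only the smaller TGFβR-WT set, *S1pr1* went from 0.51 to 1.49 in TGFβR-KO and turned from -0.79 to 0.19 in TGFβR-CA. By shares of cells above 0, *S1pr4* was 0.75 in TGFβR-KO and 0.12 in TGFβR-CA, and *Ccr7* was -0.98 and -0.046. Without mitochondrial, ribosomal protein, *Gm42418* and *AY036118* UMIs the same values were 0.95, 0.087, -1.11 and -0.13. Without cells with a B cell, myeloid or epithelial marker, which removed about as many cells as it kept because *Cst3* is in that list, *S1pr4* was 0.12 in TGFβR-CA and *Ccr7* -1.50 in TGFβR-KO and -1.02 in TGFβR-CA. *Ccr7* was -1.12 in TGFβR-KO without called doublets and -0.16 in TGFβR-CA with 1200 to 2000 genes per cell. In an alternative chosen after seeing the data, *Ccr7* in TGFβR-CA was -0.19 when *Cst3* was not counted as a marker. The calls on *S1pr4* and *Ccr7* over all TGFβR-KO cells kept their direction in every alternative run. Scrublet called 52 of 5080 cells, only 4 of them TGFβR-KO.

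At equal shares with the smaller set, *S1pr1* was 0.73 in TGFβR-KO (from -0.086) and 0.25 in TGFβR-CA (from -0.46), and *S1pr4* 0.11 in TGFβR-CA (from 0.25). Genes called higher and lower went from 206 and 407 to 94 and 120 at a fold of 2 in TGFβR-KO, and from 90 and 204 to 22 and 43 in TGFβR-CA. With at least 50 UMIs per gene, 742 were lower in TGFβR-KO, and 225 higher and 405 lower in TGFβR-CA. In Activated cells labelled TGFβR-CA, *S1pr1* turned from -0.75 to 0.13 with 1200 to 2000 genes per cell and to 2.01 without cells with other markers. Of 429 alternatives within clusters, 314 stayed within the spread. Of the 5 genes most like each member, 1 to 5 were kept under the other measures. The causes were not tested. Depth limits *Ccr7* most, with 126 UMIs in TGFβR-KO cells, and the corrected values do not show the depth of a cell.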
